A study of Mus musculus domesticus with 18 samples.

Results

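The genes described here encode the machinery that detects bacterial lipopolysaccharide and the adaptor TIFA: Cd14, Tlr4, Ly96, Lbp, Tlr2, Myd88, Tifa, Traf6 and Irak1. Every probe set annotated to only 1 of these 9 symbols was taken, which gave 20 of the 45037 probe sets on the arrays, from 1 each for Cd14, Ly96, Tlr2, Myd88 and Tifa to 5 for Traf6. Livers came from 18 wild-caught male mice of the subspecies Mus musculus domesticus. The high altitude group held 9 mice from La Paz, Bolivia (3600 m), and the low altitude group 9 mice from Lima, Peru (100 m). Each city contributed 3 trapping locations, A, B and C, with 3 mice each. Age, treatment and genotype are not given in the labels, whose strain entry (C57BL/6J) goes against the mice being wild, and each altitude is 1 city, so altitude, city and mouse population cannot be told apart. Each mouse gave 1 Affymetrix array of bulk liver RNA, in which fewer cells of a type and less RNA per cell cannot be told apart.

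Lipopolysaccharide is the outer membrane glycolipid of Gram-negative bacteria, and the liver meets it in portal blood coming from the gut. LBP, a plasma protein made by hepatocytes, passes lipopolysaccharide to CD14, which hands it to the receptor TLR4 and its co-receptor MD2, the product of Ly96. TLR2 detects bacterial lipoproteins, also with help from CD14. Both receptors act through the adaptor MYD88, IRAK family kinases and the ubiquitin ligase TRAF6 to activate NF-kappaB. TIFA feeds into TRAF6 from another side: the kinase ALPK1, switched on by the bacterial sugar ADP-heptose, phosphorylates TIFA, which then assembles and engages TRAF6.

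The members were chosen by the differences between altitudes in these same arrays, in which Cd14 and Tifa stood out, so the altitude values of all members, and any test of them, are given as a description that supports nothing further. Values are log2 RMA values, in which a step of 1 is a doubling. They can be compared between mice for 1 probe set and not between genes. The number of arrays limits the precision, with a median standard error of 0.0819 for a log2 difference over all probe sets. As a sign of RNA integrity, the difference between the 3 prime and 5 prime Actb control probe sets had a mean of 1.40 ± 0.32 in high altitude mice and of 1.21 ± 0.17 in low altitude mice (SD, 9 mice each). Its part in the values below was not tested beyond fitting it as a covariate, under which the differences of all 20 probe sets stayed within 1 SD between mice of those given here. For the small differences that bound is wide enough to allow a change of sign.

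Transcripts of the receptor side were unevenly placed between the altitudes. Cd14, the lipopolysaccharide-binding co-receptor carried by macrophages and also made by hepatocytes, lay between 7.70 and 8.87 in high altitude mice, with a median of 8.39, and between 6.47 and 8.09 in low altitude mice, with a median of 7.30. Of the 9 high altitude mice, 8 lay above every low altitude mouse, and high C3 at 7.70 was the exception. The means were 8.41 ± 0.33 in high altitude mice and 7.33 ± 0.62 in low altitude mice (SD, 9 mice each), a log2 difference of 1.09 ± 0.21 (SE), or 2.12-fold. The spread was wider in the low altitude mice.

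Tlr2, the lipoprotein receptor, followed the same direction. It lay between 6.13 and 7.49 with a median of 6.65 in high altitude mice, and between 4.90 and 6.90 with a median of 5.94 in low altitude mice. The mean of the low altitude mice was exceeded by all 9 high altitude mice, but only 4 exceeded every low altitude mouse, so the groups overlapped. The log2 difference was 0.90 ± 0.22 (SE), and it was 0.62 without high location A.

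Tlr4, the signalling receptor for lipopolysaccharide, differed little. Its brightest probe set had a mean of 5.35 ± 0.21 in high altitude mice and of 5.29 ± 0.22 in low altitude mice (SD, 9 mice each), a log2 difference of 0.06 ± 0.10 (SE), and the other 3 probe sets gave -0.03, 0.06 and 0.11. The mice of both groups were intermixed. Of these 3 weaker probe sets, 1430695_at and 1442827_at were among the dimmest on the arrays, at percentiles 7.39 and 4.10 of all probe sets by mean level.

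Ly96, which encodes the MD2 subunit that binds lipopolysaccharide within the TLR4 complex, lay the other way. It ranged from 5.85 to 7.46 with a median of 6.81 in high altitude mice, and from 6.75 to 7.59 with a median of 7.21 in low altitude mice. Of the high altitude mice 4 lay below every low altitude mouse, and 2 lay above the low altitude mean. The log2 difference was -0.49 ± 0.18 (SE), and it depended on location, at -0.28 without high location C and -0.74 without high location B.

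Lbp, the soluble carrier, lay between 11.46 and 12.54 with a median of 12.03 in high altitude mice, and between 11.14 and 11.94 with a median of 11.69 in low altitude mice, by its brighter probe set, 1448550_at. High altitude mice lay above every low altitude mouse in 5 cases. The log2 difference was 0.37 ± 0.14 (SE), and 0.24 without low location C. The weaker probe set, 1447520_at, gave 0.16 ± 0.18 (SE), with the groups intermixed, and its direction was not stable. It was 0.07 without high A2, 0.25 without low C3, -0.02 without high location A and 0.41 without high location C.

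**Figure D1:**
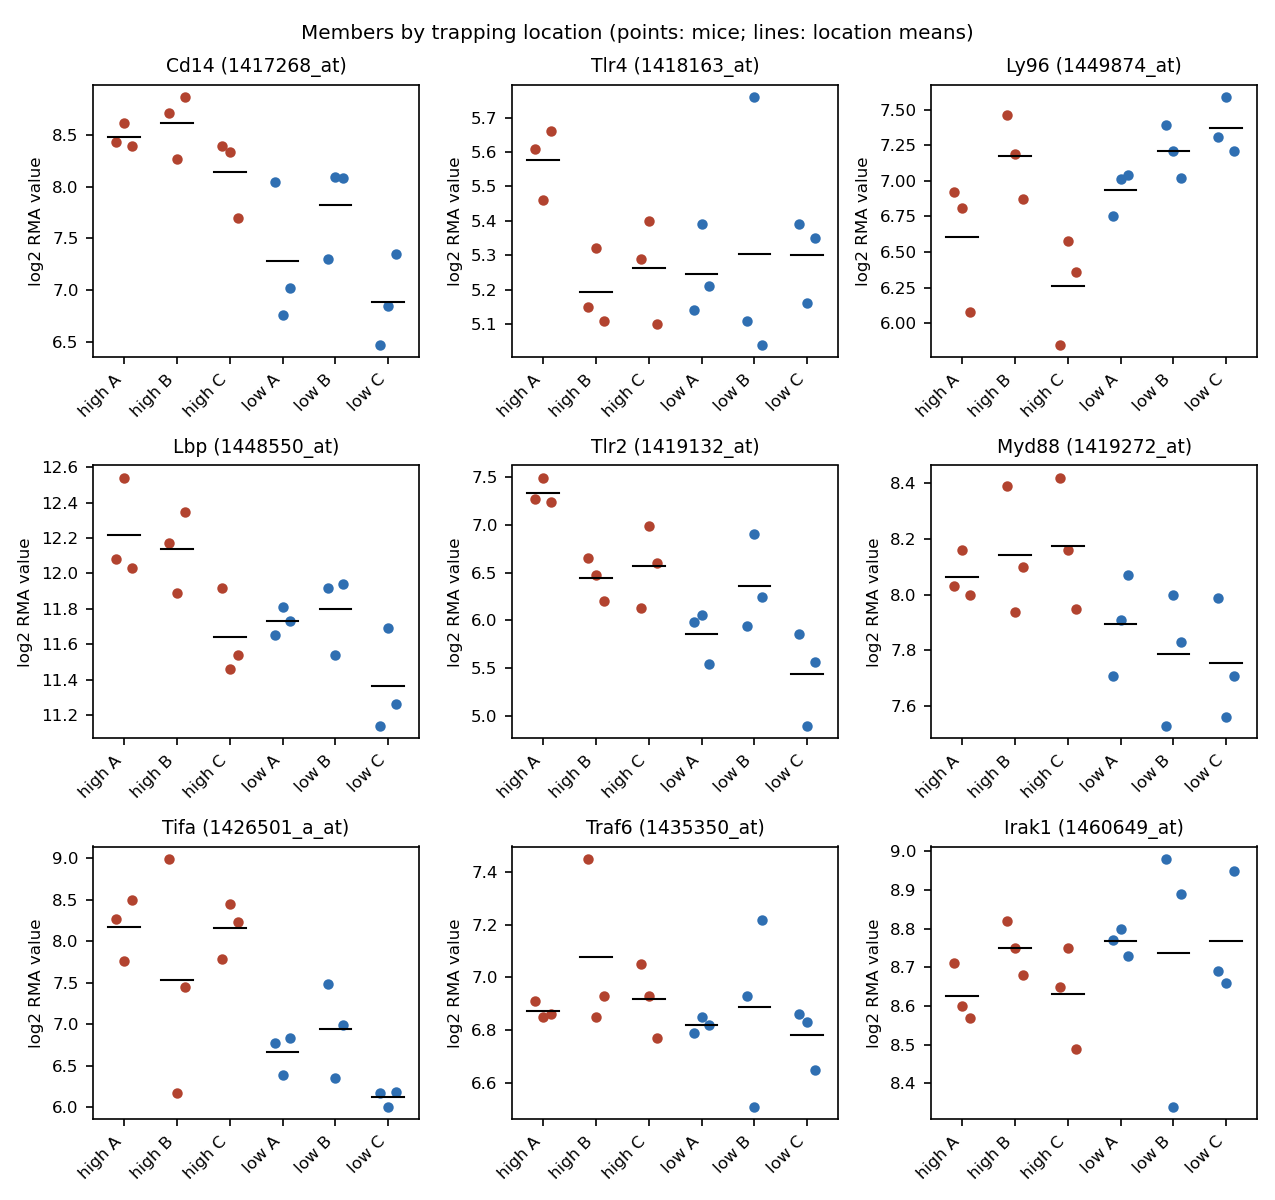
Log2 RMA value of each mouse (points, 3 per location) for the brightest probe set of each member, by trapping location, high altitude in red and low altitude in blue, with location means as lines; each panel has its own scale. Cd14, Tlr2, Myd88 and Tifa have all 3 high location means above all 3 low ones, Ly96 is lowest in high C, and single mice such as high B2 for Tifa stand away from their location.

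On the signalling side, Tifa had the largest altitude difference of the 20 probe sets. Tifa ranged from 6.17 to 8.99 with a median of 8.23 in high altitude mice, and from 6.01 to 7.49 with a median of 6.39 in low altitude mice. In 7 of 9 high altitude mice it lay above every low altitude mouse, while high B2, at 6.17, lay below the low altitude mean. The means were 7.96 ± 0.81 in high altitude mice and 6.58 ± 0.48 in low altitude mice (SD, 9 mice each), a log2 difference of 1.38 ± 0.28 (SE), or 2.60-fold. Without high B2 it was 1.60.

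Myd88, the adaptor shared by TLR2 and TLR4, showed a small shift with little spread. It lay between 7.94 and 8.42 with a median of 8.10 in high altitude mice, and between 7.53 and 8.07 with a median of 7.83 in low altitude mice. Each of the 9 high altitude mice exceeded the mean of the low altitude mice, and 5 exceeded all of them. The log2 difference was 0.32 ± 0.09 (SE), or 1.24-fold.

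Traf6 and Irak1, the ubiquitin ligase and the kinase downstream of these adaptors, stayed within 0.2 of 0 on every probe set. The 5 Traf6 probe sets had log2 differences from -0.09 to 0.13, and the 4 Irak1 probe sets from -0.09 to 0.10. For the brightest Traf6 probe set, 1435350_at, the mice lay between 6.77 and 7.45 at high and between 6.51 and 7.22 at low altitude, intermixed. For the brightest Irak1 probe set, 1460649_at, they lay between 8.49 and 8.82 at high and between 8.34 and 8.98 at low altitude, also intermixed. Low B2 was the lowest mouse on both probe sets.

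**Figure D2:**
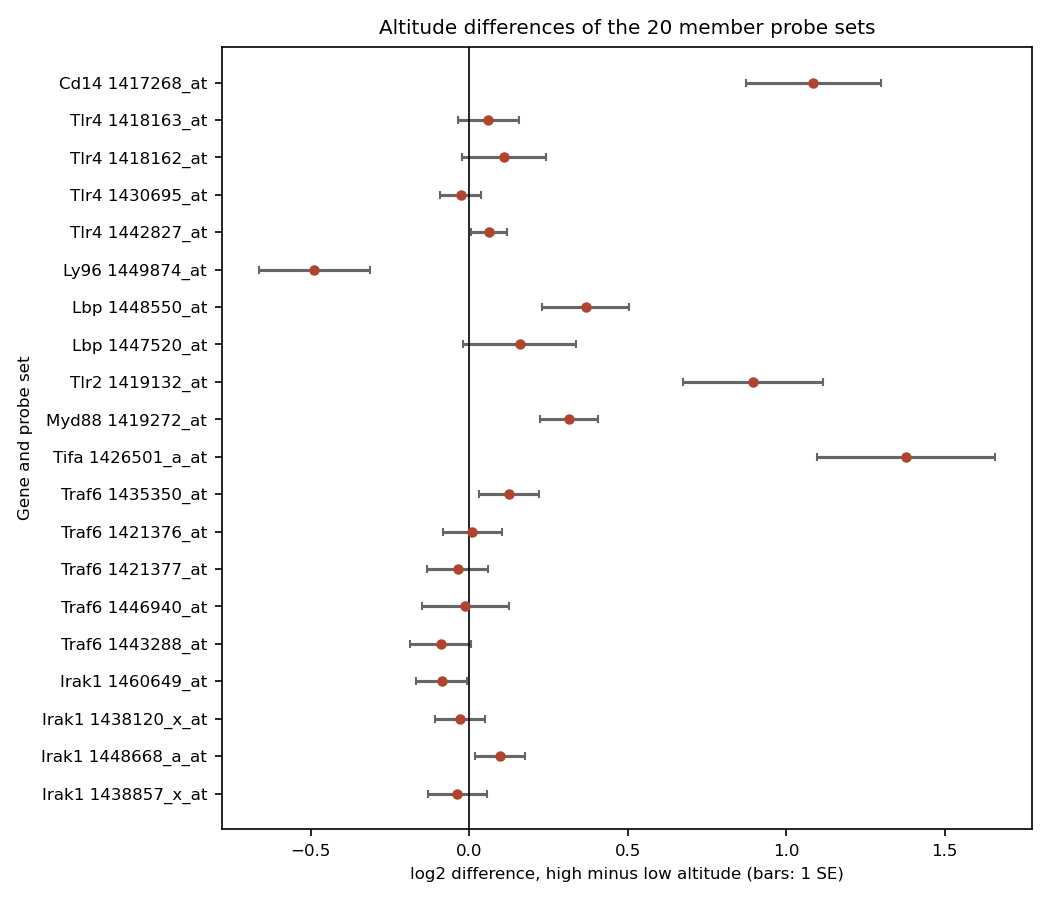
Log2 difference, high minus low altitude, of all 20 member probe sets (points) with 1 standard error (bars). Tifa at 1.38, Cd14 at 1.09 and Tlr2 at 0.90 lie farthest to the right and Ly96 at -0.49 farthest to the left, while all Tlr4, Traf6 and Irak1 probe sets lie within 0.2 of 0.

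Seen together, 14 of the 20 probe sets differed by less than 0.2 on the log2 scale between the altitudes, and the median over the 20 was 0.06, beside 0.00 over all probe sets. Taking the brightest probe set of each gene, 7 of 9 differences were positive, beside 51.6% of 18193 genes, with a median of 0.32, beside 0.00 over those genes. In the limma fit of all 45037 probe sets that the choice of members rested on, 2 of the 20, Cd14 and Tifa, were past an adjusted p of 0.05 (Benjamini-Hochberg), both higher, beside 0.298% of all probe sets in either direction and 0.171% higher. Nothing is read from that count, and neither gene was past the threshold with 1 mean per location. The 3 high location means all lay above the 3 low ones for 4 probe sets, those of Cd14, Tlr2, Myd88 and Tifa, against 6.53% of all probe sets, and all below for 1, the weak Traf6 probe set 1443288_at, against 7.07%. No member separated all 9 mice of one altitude from all 9 of the other, as 0.0822% of all probe sets did.

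Trapping locations of 1 altitude gave a comparison that the choice of members did not use. None of the 20 probe sets differed between the 3 high locations by limma's moderated F test at an adjusted p of 0.05, against 0.167% of all probe sets, and none between the 3 low locations, against 0.0622%. The smallest adjusted p was 0.225 for Ly96 between high locations and 0.605 for Tlr2 between low locations. At an unadjusted p under 0.05 there were 4 probe sets for the high locations (Ly96, Tlr2 and both of Lbp), beside 8.39% of all probe sets, and 2 for the low locations (Cd14 and Tlr2), beside 6.25%. With 3 mice per location these tests had limited reach: in simulated data of this design, a log2 change of 1 at 1 high location was called in 82.1% of cases and one of 0.5 in 34.3%. Those changes were put into probe sets drawn at random from all, each with its own spread. Ly96, Cd14, Tlr2 and Tifa had altitude standard errors of 0.18 to 0.28, above the median of 0.0819 over all probe sets. The reach for the members themselves was not simulated.

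The location values themselves show where the members were high and low. Cd14 had 8.43, 8.62 and 8.39 in high A, 8.71, 8.27 and 8.87 in high B, and 8.39, 8.34 and 7.70 in high C. In the low locations it had 8.05, 6.76 and 7.02 in A, 7.30, 8.09 and 8.08 in B, and 6.47, 6.84 and 7.35 in C. By location means the order was high B, high A, high C, low B, low A and low C, from 8.62 to 6.88, and each step between neighbours, at most 0.55, was smaller than the larger of their SDs. Neighbouring locations were thus not resolved with 3 mice each, and high C and low B were adjacent at 8.14 ± 0.39 and 7.82 ± 0.45 (SD, n = 3 each).

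Tifa had 8.27, 7.76 and 8.49 in high A, 8.99, 6.17 and 7.45 in high B, and 7.79, 8.45 and 8.23 in high C. In the low locations it had 6.77, 6.39 and 6.84 in A, 7.49, 6.36 and 6.99 in B, and 6.17, 6.01 and 6.19 in C. High B held both the highest and the lowest Tifa value of the high altitude mice, with an SD of 1.41. Low C was the tightest, with an SD of 0.10, and its step from low A, 0.55, exceeded the larger of their SDs.

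Tlr2 had 7.27, 7.49 and 7.24 in high A, 6.65, 6.47 and 6.20 in high B, and 6.13, 6.99 and 6.60 in high C. In the low locations it had 5.98, 6.06 and 5.54 in A, 5.94, 6.90 and 6.24 in B, and 5.86, 4.90 and 5.57 in C. High A stood 0.76 above the next location, more than the larger of their SDs, while high B at 6.44 and low B at 6.36 were 0.08 apart.

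Ly96 had 6.92, 6.81 and 6.08 in high A, 7.46, 7.19 and 6.87 in high B, and 5.85, 6.58 and 6.36 in high C. In the low locations it had 6.75, 7.01 and 7.04 in A, 7.39, 7.21 and 7.02 in B, and 7.31, 7.59 and 7.21 in C. The low values came from high A and high C, and high B at 7.17 lay among the low altitude locations. Among low locations, low C was lowest for 6 of the 9 genes by their brightest probe sets, and low B was highest for 6. The latter include Tlr4, for which low B and low C had nearly the same mean. Ly96 was the gene for which low C was highest.

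As shares of the sum of squares over the 18 mice, altitude took 57.4% for Cd14, 54.6% for Tifa, 45.5% for Tlr2 and 44.8% for Myd88. Differences between locations of 1 altitude took 42.0% for Ly96, 41.6% for Lbp and 34.6% for Tlr4, and 33.8% for Tlr2, so Tlr2 left the smallest share to mice of a location, 20.7%. Irak1 and Traf6 varied mainly between mice of a location, with 84.3% and 77.2%. The shares are not adjusted for the numbers of altitudes, locations and mice behind them. Values without any group difference would also vary mainly between mice of a location, so these shares are a description only.

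**Figure D3:**
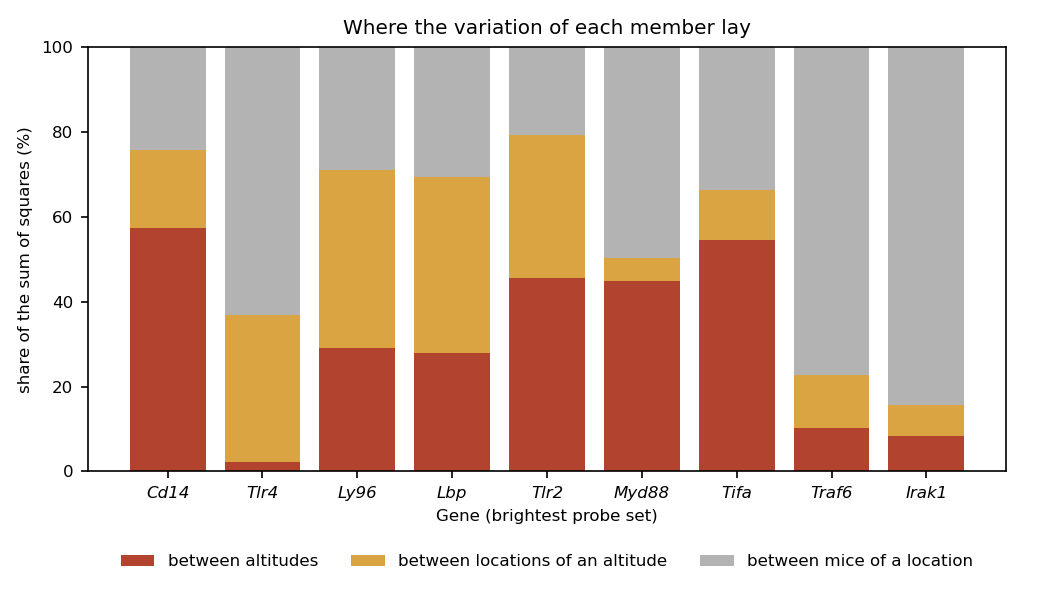
Share of each member's sum of squares over 18 mice (percent, brightest probe set) that lay between altitudes, between locations of an altitude, and between mice of a location. Altitude holds the largest share for Cd14, Tifa and Tlr2, location for Ly96 and Lbp, and mice within a location for Tlr4, Myd88, Traf6 and Irak1. Shares are not adjusted for the numbers of altitudes, locations and mice behind them.

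Whether members varied together from mouse to mouse was asked after each location's mean was subtracted, which removes altitude and location. Over the 36 pairs of the 9 genes, none passed (exact two-sided permutation of mice within locations, n = 18, Benjamini-Hochberg over 36 pairs). Cd14 and Tifa had a Pearson r of 0.06 (exact p = 0.825, adjusted p = 1.0) and a Spearman rho of -0.14 (exact p = 0.626, adjusted p = 0.938), and r was -0.01 without the 2 mice farthest from the median in Cd14. The pairs with the smallest p were Tlr4 with Lbp, at r = -0.60 (exact p = 0.0166, adjusted p = 0.433) and rho = -0.68 (exact p = 0.00759, adjusted p = 0.273), and Lbp with Tlr2, at r = -0.64 (exact p = 0.0241, adjusted p = 0.433) and rho = -0.58 (exact p = 0.0469, adjusted p = 0.562). Without the 2 mice farthest from the median in the first gene of each pair, r was -0.54 and -0.70. Any link between Cd14 and Tifa among mice of a location was not detectable with 18 mice.

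Probe sets of 1 gene were compared in the same way, as a description. The Irak1 probe sets 1438120_x_at and 1438857_x_at had r = 0.90, and 1460649_at had 0.64 and 0.66 with them, while 1448668_a_at had 0.19 to 0.28 with the other 3. Among the Traf6 probe sets 1446940_at ran against the other 4, with r from -0.70 to -0.19. The brightest, 1435350_at, had r = 0.03 with 1421376_at, 0.44 with 1421377_at and 0.48 with 1443288_at. The brighter Tlr4 probe sets, 1418163_at and 1418162_at, had r = 0.17, and the other Tlr4 pairs ran from -0.31 to 0.56. The Lbp probe sets had r = 0.33.

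The genes whose pattern was most like that of Cd14 over the 18 mice, by Pearson r with the altitude difference included, were Tmprss2 (0.85), Arap2 (0.83), Cd300lf (0.82), the class II gene H2-Aa (0.81) and Slc8b1 (0.81). After location means were subtracted they were Bmp2k (0.84), Ctps2 (0.83), Ncl (0.83), Gne (0.82) and Tead1 (0.80). For Tifa they were Prkd2 (0.83), Ctdspl (0.82), Wwc2 (0.82), Rere (0.81) and Zdhhc18 (0.80) over the 18 mice. After location means were subtracted they were Itfg2 (0.93), Pradc1 (0.93), Prkd2 (0.93), Rnf31 (0.92) and Lyrm4 (0.91). Prkd2 was in both Tifa lists. These are the highest of 18193 genes, the points share arrays, and no test is attached to them.

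Other genes of the pathway were taken from 9 lists. Of their 124 genes, 112 had a probe set named to that gene alone in the annotation used, and these are called measured. The rest, among them Irak4, Chuk, Traf3, Nfkb1 and Alpk1, had none. They may still be on the arrays under unnamed or shared probe sets. Between altitudes, 1 of the 112 was called higher, beside 0.225% of all genes, and 0 were called lower, beside 0.137%. At an unadjusted p under 0.05 limma gave 16 higher and 6 lower, together 19.6% of them beside 11.5% of all genes, and the median difference was 0.06. The lists were chosen with earlier results of these data known, and their genes share the same arrays. Nothing is read from that share.

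The called gene was Irak3, which encodes IRAK-M, an inhibitory relative of the IRAK kinases that damps signalling from MYD88. It lay between 4.70 and 6.61 with a median of 5.56 in high altitude mice, and between 4.18 and 5.04 with a median of 4.41 in low altitude mice. In 6 of 9 high altitude mice it exceeded every low altitude mouse, and each of the 9 exceeded the mean of the low altitude mice. It rose to a mean of 5.49 ± 0.62 at high altitude, against 4.47 ± 0.27 at low altitude (SD, 9 mice each), a log2 difference of 1.02 ± 0.20 (SE, limma adjusted p = 0.0303), or 2.03-fold. High A held the highest values, at 5.80, 6.61 and 5.90, and the difference was 0.71 without that location. The call was lost without any of 8 single mice: high A4 (adjusted p = 0.057), high B1 (0.0571), high C1 (0.0513), low A1 (0.0506), low A2 (0.0625), low B1 (0.0522), low B3 (0.0635) and low C2 (0.0718). It was also lost without high A (0.0812), low A (0.145), low B (0.059) or low C (0.145), and with 1 mean per location (0.409). Both Irak3 probe sets lay below the median level of the arrays, and the weaker, 1430704_at, gave 0.20 ± 0.09 (SE, adjusted p = 0.446).

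Among 15 measured negative regulators Irak3 was the 1 called (limma, 3 higher and 1 lower at an unadjusted p under 0.05), and 11 of 15 differences were positive, with a median of 0.12. The 3 genes described next were named after their values were seen. Tnfaip3, which encodes the deubiquitinase A20, had a mean of 6.97 ± 0.58 in high altitude mice and of 6.29 ± 0.43 in low altitude mice (SD, 9 mice each), with each of the 9 high altitude mice above the mean of low altitude (log2 difference 0.69, limma adjusted p = 0.21). High A was highest, at 7.60 against 6.59 in high B and 6.74 in high C. The weaker Tnfaip3 probe set, 1450829_at, gave 0.11 (limma adjusted p = 0.811). Tnip1, whose product is a partner of A20, differed by 0.28 (adjusted p = 0.300). Usp18, an interferon-induced protease, went the other way at -0.62 ± 0.29 (SE, limma adjusted p = 0.485), with 8 of 9 high altitude mice below the mean of the low altitude mice.

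Among 14 measured genes of IRAK, TAK1 and IKK signalling none was called (limma, 0 higher and 2 lower at an unadjusted p under 0.05), and the median was -0.04. Irak2, a kinase that sustains signalling after IRAK1, had a mean of 7.01 ± 0.30 in high altitude mice and of 7.67 ± 0.45 in low altitude mice (SD, 9 mice each). Each of the 9 high altitude mice was below the mean of the low altitude mice, at a log2 difference of -0.66 ± 0.17 (SE, limma adjusted p = 0.101). Ecsit, an adaptor of TRAF6, differed by -0.29 (adjusted p = 0.356) and Traf2 by 0.16 (adjusted p = 0.499). The list around ALPK1 and TIFA had 3 measured genes, Nod1 at 0.21, Traf2 at 0.16 and Tifab, a TIFA-related inhibitor, at 0.13. None was called (limma, 0 at an unadjusted p under 0.05). Alpk1 itself, Ripk2 and Nod2 had no probe set named to them alone in the annotation used, so the kinase upstream of TIFA was not read here.

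**Figure D4:**
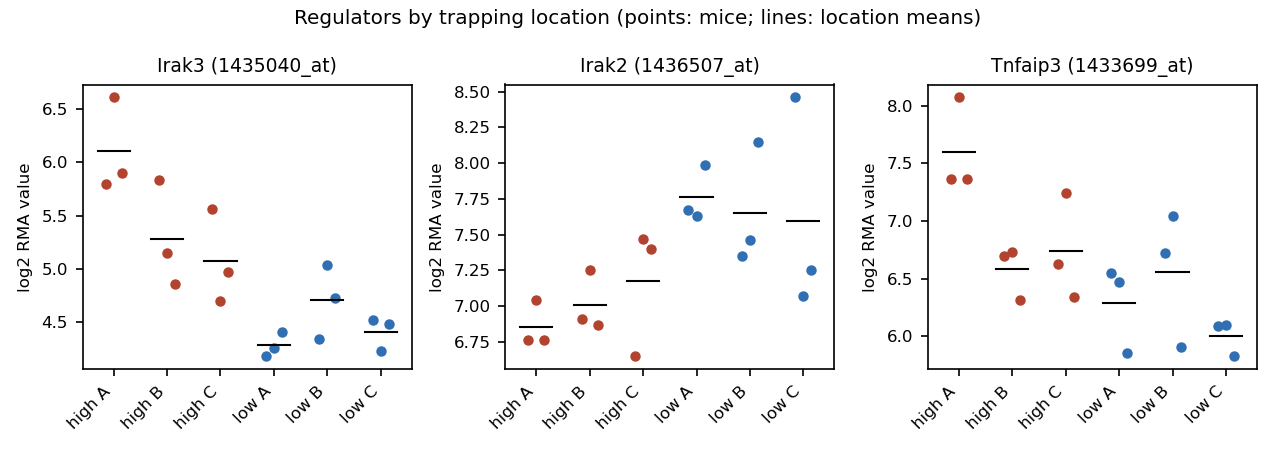
Log2 RMA value of each mouse (points, 3 per location) for Irak3, Irak2 and Tnfaip3, by trapping location, high altitude in red and low altitude in blue, with location means as lines. The mean of the low altitude mice is exceeded by every high altitude mouse for Irak3 and Tnfaip3 and by none for Irak2, and high A is the highest location for Irak3 and Tnfaip3 and the lowest for Irak2.

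None of the 11 other Toll-like receptor genes was called (limma, 3 higher and 1 lower at an unadjusted p under 0.05), with 9 positive differences and a median of 0.16. Ly86, which encodes MD1, an Ly96 relative, differed by 0.53 ± 0.16 (SE, adjusted p = 0.203), Tlr13, a sensor of bacterial ribosomal RNA, by 0.43 (adjusted p = 0.263) and Tlr9, a sensor of DNA, by -0.18 (adjusted p = 0.253). Among 6 receptor chaperones and adaptors none was called (0 higher and 1 lower unadjusted), with Cnpy3 at -0.25, Tirap at 0.16 and Sarm1 at 0.12. Among 9 NF-kappaB subunits and inhibitors none was called (2 higher and 0 lower unadjusted), 8 differences were positive and the median was 0.12. Nfkbia, the inhibitor that NF-kappaB itself induces, differed by 0.36 ± 0.13 (SE, adjusted p = 0.278), Relb by 0.24 (adjusted p = 0.415) and Nfkbib by 0.16 (adjusted p = 0.606).

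None of 12 genes of lipopolysaccharide binding and clearance was called (limma, 1 higher and 1 lower unadjusted), and the median was 0.02. The scavenger receptor gene Cd36 differed by 1.25 ± 0.34 (SE, adjusted p = 0.138), the lipoprotein gene Apob by -0.25 (adjusted p = 0.24) and Apoe by 0.07 (adjusted p = 0.678).

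None of 23 NF-kappaB target cytokine and adhesion genes was called between altitudes (limma, 6 higher and 0 lower unadjusted), with 16 positive differences and a median of 0.06. The chemokine gene Ccl5 differed by 1.27 ± 0.34 (SE, adjusted p = 0.119), the adhesion gene Vcam1 by 1.10 (adjusted p = 0.303) and Il1b by 0.36 (adjusted p = 0.332). Ccl5 was the 1 pathway gene that differed between high locations (limma F test, adjusted p = 0.00971, beside 0.236% of all genes). It had 9.62, 9.65 and 10.12 in high A, against 8.54, 8.23 and 7.66 in high B and 7.84, 7.84 and 7.07 in high C. High A lay apart from both, and without high A4 the adjusted p was 0.0506.

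None of 20 acute phase protein genes was called between altitudes (limma, 1 higher and 0 lower unadjusted), with a median of 0.02 and differences from -1.70 to 0.98. Hpx, which binds haem, differed by 0.18 (adjusted p = 0.289), Lcn2, which binds bacterial siderophores, by 0.98 (adjusted p = 0.53) and Saa4 by -0.28 (adjusted p = 0.568). Saa3 was the 1 pathway gene that differed between low locations (limma F test, adjusted p = 0.0316, beside 0.066% of all genes). It had 11.56, 11.77 and 11.79 in low B, against 9.77, 9.09 and 8.82 in low A and 8.49, 9.0 and 9.88 in low C. By brightest probe sets, low B was also the highest low location for Cd14, Tlr4, Lbp, Tlr2, Tifa and Traf6. The location tests of these genes were not called. Only for Tlr2 did the gap to the next low location exceed the larger of their SDs. For Tlr4, low B and low C had nearly the same mean, and apart from low B2 the low B mice lay below every low C mouse. Of the other Traf6 probe sets, 1421377_at was also highest in low B, 1421376_at and 1443288_at in low A, and 1446940_at in low C. The Saa3 call was lost without high B3 (adjusted p = 0.0556), low A2 (0.0881), low A3 (0.101), low B1 (0.107), low B2 (0.0822) or low B3 (0.15).

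**Figure D5:**
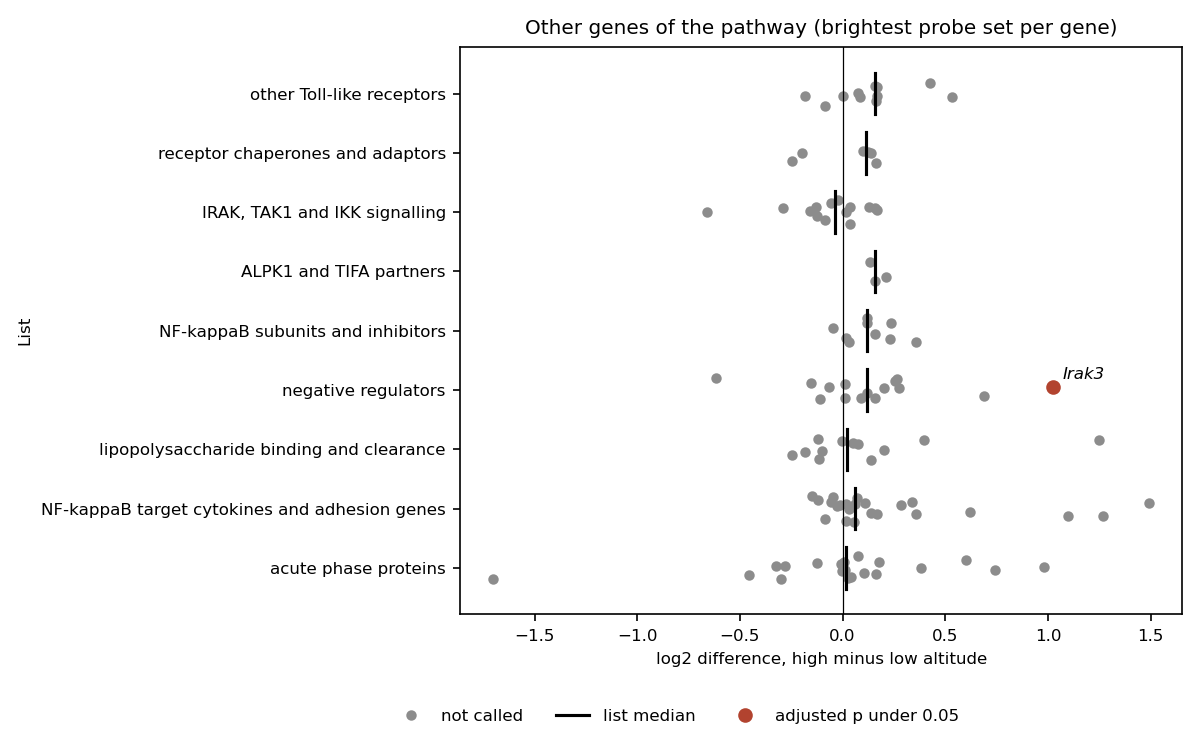
Log2 difference, high minus low altitude, of every measured gene of the 9 pathway lists (points, brightest probe set per gene, spread vertically for legibility), with list medians as lines. Irak3, in red at 1.02, is the 1 gene at an adjusted p under 0.05, and all list medians lie between -0.04 and 0.16.

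Markers of the cell types in liver were read beside these values. For the counts that follow, limma called 0.225% of all genes higher and 0.137% lower between altitudes, and 11.5% had an unadjusted p under 0.05. Between high locations it called 0.236%. Hepatocyte markers had a mean log2 level between 14.14 and 14.35 in high altitude mice and between 14.20 and 14.46 in low altitude mice, with 0 of 8 called (limma, 0 unadjusted). Kupffer cell and macrophage markers, the cells richest in these receptors, lay between 8.46 and 9.89 at high and between 8.43 and 9.56 at low altitude, with 0 of 13 called and 12 of 13 differences positive (limma, 4 higher and 0 lower unadjusted, median 0.27). These differences ranged from -0.22 for Cd163 to 0.56 for Csf1r. Monocyte markers lay between 7.18 and 7.60 at high and between 6.83 and 7.40 at low altitude, with 0 of 9 called (limma, 2 higher and 0 lower unadjusted) and differences from -0.08 to 0.68. Neutrophil markers lay between 5.62 and 6.02 at high and between 5.44 and 6.00 at low altitude, and dendritic cell markers between 5.20 and 5.46 at high and between 5.16 and 5.58 at low altitude, with 0 of 9 and 0 of 7 called (limma, 1 and 0 unadjusted). T and NK cell markers lay between 5.47 and 6.29 at high and between 5.28 and 6.02 at low altitude, with 0 of 11 called (limma, 6 higher and 0 lower unadjusted, median 0.25). Nkg7, a cytotoxic granule gene, differed between high locations (limma F test, adjusted p = 0.0498), a call lost without any of 15 single mice. Levels of B and plasma cell markers were between 6.35 and 7.0 at high and between 6.11 and 6.36 at low altitude, with 2 of 9 called higher, Jchain by 2.34 (limma adjusted p = 0.00361) and Ighm by 2.05 (adjusted p = 0.00787), both parts of IgM. The other 7 of that list lay between -0.15 and 0.29, with Ms4a1, Cd79b and Xbp1 negative, and the list median was 0.07. The Ighm call was lost without high location A (adjusted p = 0.0506) or low location C (0.0526), and both calls with 1 mean per location (0.0925 for Ighm and 0.104 for Jchain). Endothelial, stellate and cholangiocyte markers had 0 of 9, 0 of 9 and 0 of 5 called (limma, 2, 1 and 0 unadjusted), with medians of -0.02, 0.01 and -0.04. The endothelial markers were split, with 4 of 9 differences positive and a range from -0.73 for Lyve1 to 0.83 for Vwf (limma adjusted p = 0.0708, higher than the mean of the low altitude mice in 9 of 9 high altitude mice). Of the high locations, high A was highest for Tlr4, Lbp, Tlr2 and Tifa, and for Irak3 and Ccl5. It also had the highest Kupffer and macrophage level, 9.60 against 8.75 in high B and 9.12 in high C, and the highest T and NK level, 6.19 against 5.65 and 5.61. High B, with the lowest Kupffer and macrophage level of the 3, was highest for Cd14, Ly96, Traf6 and Irak1, and high C for Myd88. Several of these ranks rested on gaps below the larger SD of the 2 locations. Tifa had 8.18 in high A and 8.16 in high C, and Lbp 12.22 in high A and 12.14 in high B. Cd14 had 8.62 in high B and 8.48 in high A, Traf6 7.08 in high B and 6.92 in high C, and Myd88 8.17 in high C and 8.15 in high B. Among the low locations the Kupffer and macrophage level was 9.35 in low B, 8.86 in low A and 8.49 in low C. By brightest probe sets, the low location means of Cd14, Lbp, Tlr2, Tifa and Traf6 had that same order. Those of Tlr4, Ly96, Myd88 and Irak1 did not. Several of these steps were also below the larger SD of the 2 locations. The part of these cells in the members' values was not tested.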

How the data were processed

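Per the labels' protocols, total RNA of each liver was made into biotinylated cRNA for 1 Affymetrix mouse array. The authors deposited log2 values, made with RMA in the R package affy per the submitters' processing notes (no version is given in the sources used here). As background, that method models and removes probe background, equalises the distributions of the arrays and fits 1 value per probe set, which compresses weak signals. Of 45101 probe sets, 64 controls were left out. GEO's platform annotation gave 34945 probe sets 1 symbol and 932 several, and 9160 are unnamed here. A listed gene stands for its brightest single-gene probe set.

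Altitude was fitted with limma 3.58.1 (R 4.3.3), taking location as a random block (consensus correlation -0.00189). Moderated F tests used 6 location means. Both used trended eBayes, two-sided tests and Benjamini-Hochberg adjustment at 0.05 over 45037 probe sets. These p-values treat mice as independent. Members and lists were chosen with earlier results of these data known. Genes named from a list are those called, otherwise the 3 with the smallest p, and the 5 most like Cd14 and Tifa by r. Tnfaip3, Tnip1, Usp18 and the altitude extremes of marker lists were named after their values were seen. On simulated data the altitude fit called 74.6%, 97% and 100% of log2 changes of 0.5, 1 and 2, in probe sets drawn at random. Alternatives covered the location term, mouse number, probe sets, filter, moderation, weights, scaling, RNA integrity, and each mouse and location left out. Figures used matplotlib 3.10.9. No sequences were used here.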

Additional observations from a re-analysis of the deposited data

Results flagged for a closer look

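In 40 groups of 9 mice (20 probe sets at each altitude), 5 mice stood farther from the rest of their group than Dixon's 95% limit allows, and chance flags about 1 in 20 groups. For Tlr4 probe set 1418163_at, low B2 was highest at 5.76, with the others between 5.04 and 5.39. For the weak Tlr4 probe set 1442827_at, high A4 was highest at 3.50, with the others between 3.13 and 3.22. For Traf6 probe set 1435350_at, high B1 was highest at 7.45, with the others between 6.77 and 7.05. For Traf6 probe set 1446940_at, high A1 was lowest at 4.00, with the others between 4.58 and 5.17. For Irak1 probe set 1460649_at, low B2 was lowest at 8.34, with the others between 8.66 and 8.98. The values of Cd14, Tifa, Tlr2, Ly96, Lbp and Myd88 included no such mouse.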

How the results depend on the processing

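Under 34 alternative settings, all 663 altitude differences of member probe sets stayed within 1 SD between mice of the reported values. For most of these that was fixed in advance. Leaving out 1 mouse or 1 location cannot move a difference by 1 SD. Settings that change only the location term, the probe sets tested or the moderation leave the difference itself as it was. Only mouse number, array weights, scaling and the Actb covariate could have passed the bound. For small differences that bound allows a change of sign. Without high location A, Tlr4 1418163_at went from 0.06 to -0.06 and Lbp 1447520_at from 0.16 to -0.02. All 1006 location tests stayed on the same side of the threshold. The altitude difference ran from 0.86 to 1.33 for Cd14 and from 1.15 to 1.60 for Tifa. Counts over all probe sets moved more. Leaving out each mouse gave 49 to 163 probe sets called between altitudes (134 reported), 31 to 113 between high locations (75 reported) and 13 to 62 between low locations (28 reported). Without whole locations the altitude count was 82 (high A), 227 (high B), 78 (low B) and 39 (low C). With 1 mean per location limma called 0, with 3634 at an unadjusted p under 0.05. The brightest probe set per gene gave 66 between altitudes and 13 between low locations, where fewer were tested. Array weights gave 251, 314 and 107 for altitude, high and low locations, and median centring 43 for high locations. The Actb covariate gave 205 for altitude and 23 for high locations. The causes were not tested. With mouse number as a replicate block, which spends the only mouse numbered 4 (high A4), the counts were 64, 50 and 22, and Irak3 had an adjusted p of 0.102, Ccl5 0.0928, Saa3 0.0999 and Nkg7 0.161. Cd14 (0.0838) and Tifa (0.067) were also not past the threshold under the block. With 1 mouse left out, Cd14 was past it in 13 of 18 fits (not without high A2, B1 or C2, or low A2 or C2) and Tifa in 5 (without high B2 or B3, or low A1, A3 or B1). With 1 location left out, Cd14 was past it in 2 of 6 fits and Tifa in 1. These places chose the members and support nothing. No pairing by mouse number was seen: deviations of same-numbered mice had a mean r of -0.01, beside 0.01 for other pairs. Single same-numbered pairs ran from -0.37 to 0.39, so this mean could not show that the numbers carry nothing. Weak probe sets limit what can be said of Tlr4 and Irak3.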
